A study of Erysimum cheiri and Matthiola incana and Raphanus sativus with 44 samples.

Results

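Wallflower (Erysimum cheiri) is an ornamental crucifer grown in many flower colours. The data described here are petal transcriptomes of its forms O and B, with 2 libraries of each, 4 of the 44 libraries of a series that covers 22 forms of 10 Brassicaceae species. The 4 libraries were chosen by the form code in their sample titles. The colour label is pink for O and orange for B, and the sources used here do not say what the codes stand for. Petals came from half-open flowers of greenhouse plants, and strand-specific poly(A) libraries were sequenced. The 2 libraries of a form are called biological replicates by the submitters, who do not say whether they came from separate plants, so p-values measure the spread between these libraries only. A further wallflower form, Y, labelled yellow, with 2 libraries, entered the fit only to help estimate the spread between libraries, and its values are set beside those of O and B where they help. The organism label of the Y samples names Eruca, while their titles and the table that holds them say wallflower.

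Flower colour in crucifers comes mainly from 2 pigment classes. Anthocyanins are red to purple flavonoids: chalcone synthase starts the pathway, a series of hydroxylases and reductases builds the coloured anthocyanidin, glycosyltransferases stabilise it and a glutathione transferase helps carry it into the vacuole. Flavonols branch off the same pathway before the reductase step and are nearly colourless to the eye. Carotenoids are yellow to orange terpenoids made in plastids from isoprenoid units of the methylerythritol phosphate pathway, and their level in a petal depends on synthesis, on storage in chromoplasts and on cleavage by dioxygenases.

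Expression is given as FPKM, a fragment count scaled to transcript length and library size, which the authors computed against the Arabidopsis thaliana genes. A low value can therefore stand for few transcripts or for a wallflower sequence far from its Arabidopsis counterpart. Of 34133 loci in the table, 12669 averaged 1 FPKM or more in O or in B and were tested with limma on log2(FPKM + 1), and every log2 difference below is O minus B on that scale, which understates the change of low loci. A locus is called when its Benjamini-Hochberg adjusted p over all tested loci is under 0.05. With 2 libraries against 2, an exact two-sided permutation test of a single locus cannot go below p = 0.333, so calls rest on the spread shared across loci in the limma fit. In petals sequenced whole, fewer cells of a type and less RNA per cell cannot be told apart.

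The libraries of O differed far more from each other than those of B. Among loci averaging 10 FPKM or more in the form, 45.8% of 6082 lay within 1.5-fold between the O libraries, against 88.5% of 5897 between the B libraries. A gap of at least 4-fold between libraries of 1 form was seen at 1491 of the tested loci in O (11.8%) and at 511 in B (4.03%). Each O library also ranked the tested loci more like libraries of other forms than like its partner. The Spearman correlation between the O libraries was 0.815, against 0.920 between the B libraries. O library 1 reached 0.878 with Y library 1. O library 2 reached 0.870 with Y library 2, and 0.866 and 0.870 with the B libraries. Where whole reads could be recovered from the steps in the FPKM values, the B libraries differed little more than sampling allows, with a mean chi-square per locus of 1.32 over 1345 loci, where 1 is the value for pure counting noise, and 6.62 over 1802 loci in O. The B libraries still exceeded counting noise over these loci (chi-square test, p = 1.15e-14). Whether the spread between B libraries is technical only was not tested. Total FPKM was 726999 and 961110 in the O libraries and 938903 and 899654 in the B libraries. A single plastid locus, ATCG00220, held 12.8% and 2.93% of it in the O libraries and 9.68% and 8.29% in the B libraries. The value of a single read at a typical locus ran from 0.627 to 0.909 FPKM over the 4 libraries, so values of a few FPKM rest on a handful of reads.

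**Figure D1:**
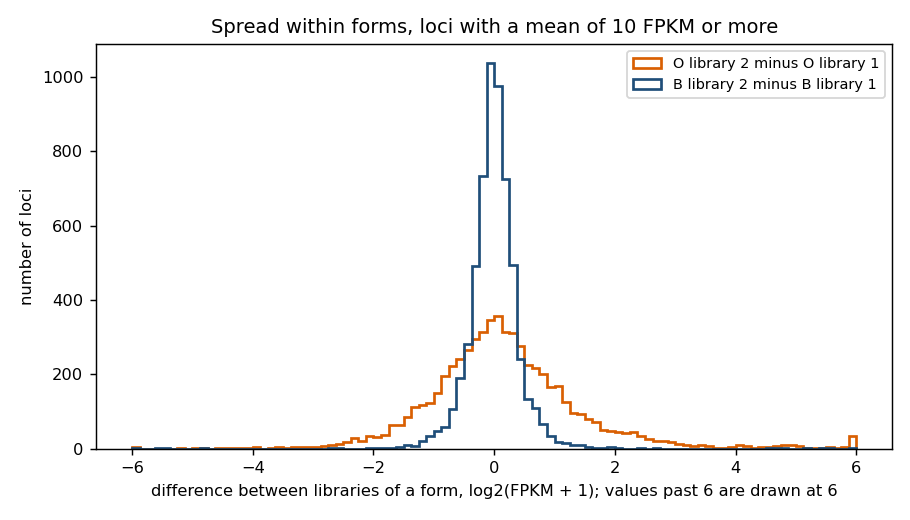
Difference between the 2 libraries of a form at each locus averaging 10 FPKM or more in that form, on the log2(FPKM + 1) scale, as a histogram with the number of loci on the vertical axis. The B differences crowd around 0 and those of O spread widely, as the shares within 1.5-fold, 88.5% in B and 45.8% in O, also show.

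Only 4 loci passed the test, 3 higher in O (0.0237% of those tested) and 1 lower (0.00789%). GASA6 and RCI2B, both higher in O, are the named ones. GASA6 (AT1G74670) encodes a small cysteine-rich peptide of the gibberellin-regulated GASA family, known in Arabidopsis to act in seed germination and cell elongation. It read 488 and 541 FPKM in the O libraries and 40.4 and 46.7 in the B libraries. The forms were far apart and the libraries of each form close together: the means were 514 ± 37.6 and 43.5 ± 4.47 FPKM (SD, n = 2 each), 11.8-fold higher in O (log2 difference 3.53, SE 0.269, limma adjusted p = 0.0449). In form Y it stood higher still, at 1045 and 989 FPKM. RCI2B (AT3G05890) encodes a very small hydrophobic membrane protein induced by cold in Arabidopsis. It read 31.6 and 39.7 FPKM in O, was listed at 0 in both B libraries and read 146 and 83.7 in Y (log2 difference 5.19, SE 0.412, limma adjusted p = 0.0449). Because the transcript is so short, these O values stand for only 5 recovered reads in each library, and a fold against a listed 0 is not given.

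The other 2 calls were all-or-none and concern loci that no list names. AT3G28530 was listed at 66901 and 54708 FPKM in B, 7.13% and 6.08% of the summed FPKM of those libraries, and at 0 in both O libraries and both Y libraries (log2 difference −15.88, SE 0.285, limma adjusted p = 2.43e-05). AT2G40205 was listed at 1189 and 1515 FPKM in O and at 0 in B and in Y (log2 difference 10.39, SE 0.378, limma adjusted p = 0.000861). An exact 0 in such a table can be a failed estimate: at 5 of the 159 loci that reached 1000 FPKM in an O library, the other O library was listed at 0, and so it was at 4 of 115 in B. Both libraries of a form were alike at these 2 loci, but a call favours such loci. Whether their 0 values, or the 0 values of RCI2B in B, are failed estimates or come from reads assigned to other loci was not tested.

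None of the 4 calls held in every alternative: of 12, GASA6 and RCI2B each kept theirs in 3, AT2G40205 in 7 and AT3G28530 in 9. GASA6 and RCI2B lost the call when any of the 4 libraries was left out, and AT2G40205 did so as well, with adjusted p from 0.000724 to 0.162 over all alternatives, 0.0359 to 0.231 for GASA6 and 0.0217 to 0.242 for RCI2B. AT3G28530 kept it without either O library and lost it without either B library, with adjusted p from 3.3e-05 to 0.152. No direction turned, and the log2 difference ran from 3.41 to 3.64 for GASA6, 5.03 to 8.47 for RCI2B, 10.22 to 13.71 for AT2G40205 and −19.21 to −14.37 for AT3G28530. The last 3 are listed at 0 in a form, so their fitted size depends on the pseudocount.

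**Figure D2:**
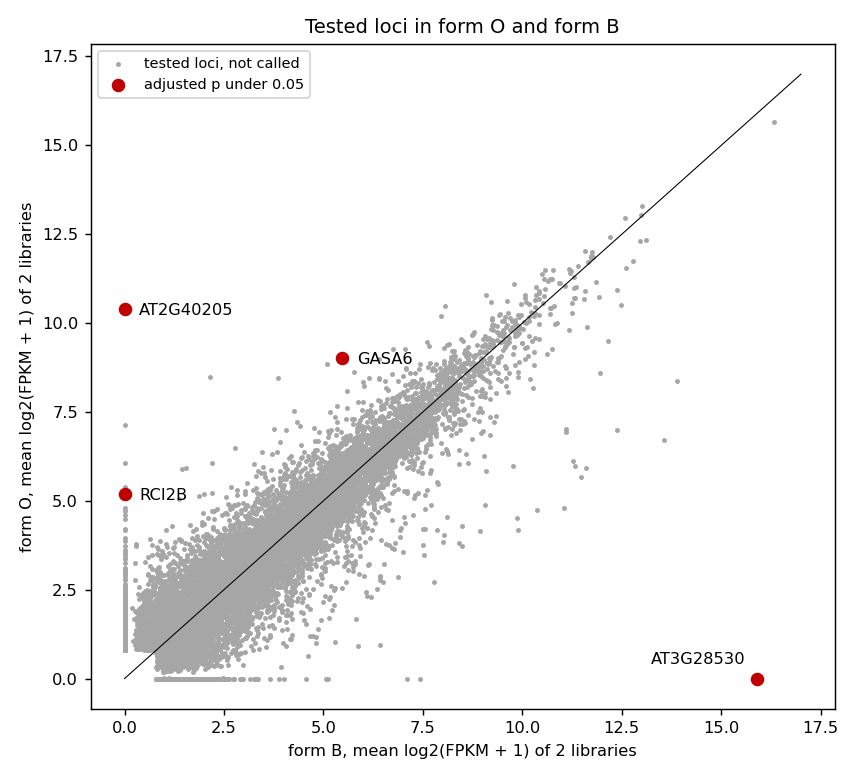
Mean log2(FPKM + 1) of the 2 libraries of form O (vertical axis) against that of form B (horizontal axis), 1 point per tested locus, with equality as a line. The 4 called loci are red: AT2G40205 and RCI2B sit on the vertical axis, listed at 0 in B, AT3G28530 sits at the lower right, listed at 0 in O, and GASA6 lies 3.53 above the line.

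At an unadjusted p under 0.05, 700 loci were higher in O (5.53%) and 518 lower (4.09%). Both O libraries lay above both B libraries at 2549 loci (20.1%) and below both at 2641 (20.8%), and the median log2 difference was 0.01. These shares are the background for the gene groups below, in which GASA6 and RCI2B are the only called members. The groups are described by their library values, and no difference named in them from here on passed the adjusted threshold.

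Flavonoid genes were mostly higher in O by their library values. Of the 10 early flavonoid loci tested, 8 had both O libraries above both B libraries and 2 overlapped, with a median log2 difference of 1.3, and 4 of the 10 had an unadjusted p under 0.05. Without O library 1 the median was 0.68. CHS, chalcone synthase, the entry enzyme, read 3556 and 886 FPKM in O and 565 and 528 in B (log2 difference 1.70, SE 0.678, limma adjusted p = 0.515). Much of that difference came from O library 1, 4.01-fold above O library 2. F3H, flavanone 3-hydroxylase, was even within forms, at 325 and 334 FPKM in O and 94.8 and 89.8 in B. Its means were 3.57-fold apart, with a log2 difference of 1.83 (SE 0.421) and a limma adjusted p of 0.378.

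Other members of the list differed in how far the forms were apart. FLS1, flavonol synthase, read 45.1 and 18.7 FPKM in O and 4.59 and 5.55 in B, a 6.29-fold ratio of means (log2 difference 2.32, SE 0.514, limma adjusted p = 0.378). F3PRIMEH, the flavonoid 3′-hydroxylase that sets the second hydroxyl of the B ring, read 139 and 69.7 in O and 38.5 and 46.2 in B (log2 difference 1.2, limma adjusted p = 0.589). CHIL, a non-catalytic chalcone isomerase-like protein that assists chalcone synthase, was steadier, at 999 and 954 FPKM in O and 609 and 593 in B. RHM1, which makes UDP-rhamnose for flavonol glycosides, read 77.3 and 76.3 in O and 45.9 and 31.9 in B. The 2 that overlapped were CHI, chalcone isomerase, at 18.3 and 9.11 in O and 3.55 and 17.2 in B, and UGT89C1, a flavonol rhamnosyltransferase, at 9.60 and 14.4 in O and 12.1 and 9.71 in B.

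Upstream of these, the general phenylpropanoid loci gave a median log2 difference of 0.81, with 4 of 7 above B in both O libraries and 3 overlapping. The median was 0.55 without O library 1 and 1.58 without O library 2. 4CL3, the 4-coumarate:CoA ligase of the flavonoid branch in Arabidopsis, read 163.7 and 26.48 FPKM in O and 2.998 and 4.223 in B, where both O libraries were far above B and 6.18-fold apart from each other (log2 difference 3.88, SE 0.830, limma adjusted p = 0.377). PAL1, phenylalanine ammonia-lyase, read 3554 and 1612 in O and 1558 and 1429 in B, so that O library 2 was close to B. The loci of sinapate and lignin synthesis, which share these first steps, were mixed: 3 of 10 tested lay above B, 2 below and 5 overlapped.

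The late anthocyanin loci were high mainly in O library 1. Of 7 tested, 5 had both O libraries above both B libraries, and the median log2 difference was 1.11. Against the mean of B, the median was 1.67 for O library 1 and 0.36 for O library 2. SCPL10, the locus at the median of 1.11 and 1 of the 5, rested on 2 and 3 recovered reads in O and 0 and 1 in B. DFR, dihydroflavonol reductase, read 81.3 and 19.1 FPKM in O and 13.4 and 16.1 in B (log2 difference 1.38, SE 0.706, limma adjusted p = 0.607). LDOX, the dioxygenase that forms the coloured anthocyanidin, read 216 and 60.3 in O and 62.9 and 72.5 in B, and its log2 difference of 0.75 turned to −0.16 without O library 1. TT19, the glutathione transferase needed for vacuolar deposition, read 1107 and 112 FPKM in O and 65.4 and 74.8 in B, with the O libraries 9.93-fold apart (log2 difference 2.32, SE 1.15, limma adjusted p = 0.599). UGT75C1, the anthocyanin 5-O-glucosyltransferase, had the lowest p of the late genes, at 77.3 and 33.6 in O and 5.33 and 14.3 in B (log2 difference 2.40, SE 0.637, limma adjusted p = 0.441).

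Form B was not without late anthocyanin transcripts. In B the loci DFR, LDOX, TT19, UGT75C1 and UGT79B1, the last an anthocyanin xylosyltransferase, were all above 0 in both libraries, UGT79B1 at 37.9 and 40.2 FPKM against 123 and 44.6 in O. In form Y the same loci were at or near 0: DFR, UGT75C1 and UGT79B1 were listed at 0 in both libraries, LDOX read 0.951 and 0.855, and TT19 0 and 3.07. F3H in Y read 14.7 and 34.2 FPKM, under both O and B.

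Of 12 activators, 7 were tested, of which 3 lay above B in both O libraries and 4 overlapped. PAP1, the MYB activator of anthocyanin genes, read 34.8 and 7.77 FPKM in O and 5.45 and 2.93 in B, from 28, 5, 3 and 2 recovered reads in that order (log2 difference 1.82, SE 0.937, limma adjusted p = 0.609). PAP2, its close relative, overlapped, at 6.78 and 2.82 in O and 3.30 and 1.33 in B, and reads of such close copies may be split between them. TT8, the bHLH partner, was listed at 5.98 in O library 1 and at 0 in the other 3. MYB12, an activator of flavonol genes, read 2.84 and 0.884 in O and 0 in both B libraries. HY5, a bZIP factor of light responses, was even within forms, at 382 and 434 FPKM in O and 218 and 228 in B. Of 7 tested repressors, 2 lay above B, 1 below and 4 overlapped. MYB4, which represses phenylpropanoid genes in Arabidopsis, read 131 and 74.4 in O and 29.7 and 34.4 in B (log2 difference 1.60, SE 0.355, limma adjusted p = 0.378), and LBD39 read 0 and 1.39 in O and 3.26 and 5.26 in B.

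**Figure D3:**
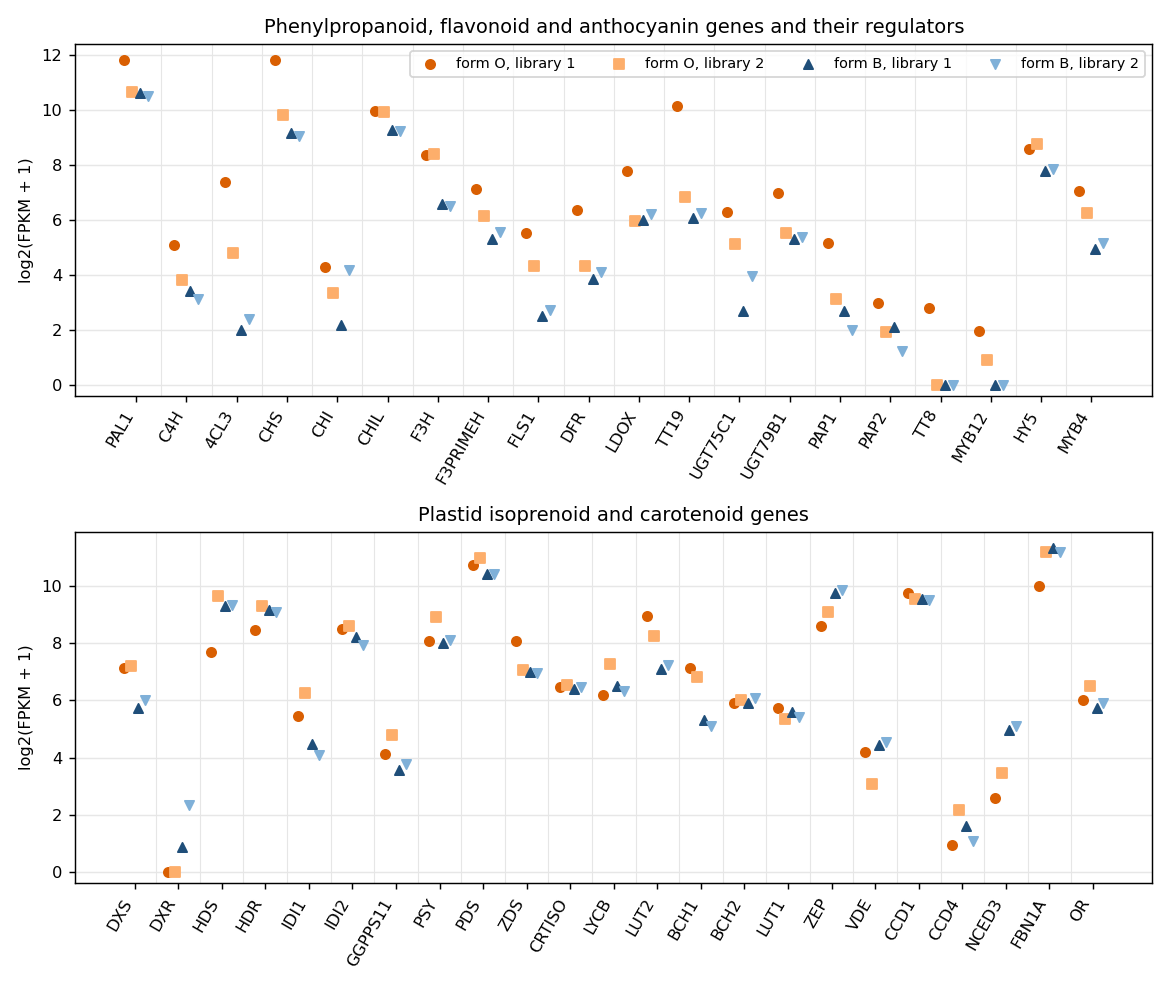
Level of pigment genes in each library as log2(FPKM + 1), with form O in orange (circle and square for libraries 1 and 2) and form B in blue (triangles). In the upper plot most flavonoid and anthocyanin genes have O library 1 on top, as for TT19 at 1107 FPKM, and in the lower plot BCH1, LUT2 and DXS have both O libraries above B while ZEP and NCED3 have both below.

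Carotenoid genes were expressed throughout the pathway in both forms, and most differed little. All 13 biosynthesis loci were tested: 6 had both O libraries above B, 2 below and 5 overlapped, with a median log2 difference of 0.31, which was 0.05 without O library 2. PSY, phytoene synthase, the first committed enzyme, read 269 and 477 FPKM in O and 253 and 272 in B, so that O library 1 lay within the B range (log2 difference 0.45, SE 0.367, limma adjusted p = 0.687). PDS, phytoene desaturase, was the highest of the list, at 1683 and 2015 in O and 1370 and 1346 in B. CRTISO, the carotenoid isomerase, was nearly level, at 88.3 and 91.1 in O and 83.5 and 86.8 in B.

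At the branch point and after it, single enzymes stood out. LUT2, lycopene epsilon-cyclase, which leads to lutein, read 490 and 304 FPKM in O and 137 and 151 in B, 2.76-fold by the means (log2 difference 1.42, SE 0.393, limma adjusted p = 0.456), while LYCB, the beta-cyclase of the other branch, overlapped at 70.9 and 152 in O and 88.6 and 79.2 in B. BCH1, a beta-carotene hydroxylase, read 140 and 112 FPKM in O and 38.3 and 33.0 in B, with tight pairs and a 3.53-fold ratio (log2 difference 1.79, SE 0.279, limma adjusted p = 0.252). BCH2, the second hydroxylase, did not separate the forms, at 58.3 and 63.8 in O and 58.9 and 67.2 in B (log2 difference −0.04, SE 0.281, limma adjusted p = 0.962). The sign of the BCH2 difference changed without O library 1 (0.02) or without B library 2 (0.05).

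The 2 biosynthesis loci with both O libraries below B were ZEP and VDE. ZEP, zeaxanthin epoxidase, read 384 and 536 FPKM in O and 861 and 930 in B, 1.95-fold higher in B by the means (log2 difference −0.98, SE 0.325, limma adjusted p = 0.498). VDE, its counterpart violaxanthin de-epoxidase, read 17.3 and 7.44 in O and 20.7 and 22.3 in B. Of 7 tested cleavage and storage loci, 2 lay above B, 2 below and 3 overlapped. NCED3, which cleaves epoxycarotenoids in the main regulated step of abscisic acid synthesis, read 5.04 and 9.96 in O and 30.4 and 33.7 in B, from 12 and 19 recovered reads in O and 50 and 69 in B (log2 difference −2.02, SE 0.643, limma adjusted p = 0.480). CCD4, the dioxygenase that removes carotenoids from white petals of several species, was close to the detection level, at 0.949 and 3.55 FPKM in O and 2.058 and 1.104 in B, at most 6 recovered reads in a library. CCD1, a cytosolic cleavage dioxygenase, was abundant and nearly level, at 855 and 750 in O and 735 and 731 in B. FBN1A, a fibrillin of plastoglobules, read 1007 and 2318 in O and 2560 and 2345 in B.

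The plastid isoprenoid pathway that feeds carotenoids gave a median log2 difference of 0.99, with 6 of 10 loci above B in both O libraries, 1 below and 3 overlapping. The median was 0.44 without O library 2 and 0.63 without B library 1. DXS, the entry enzyme and a main control point, read 139 and 147 FPKM in O and 51.8 and 62.8 in B, 2.49-fold by the means (log2 difference 1.31, SE 0.327, limma adjusted p = 0.407). IDI1, an isopentenyl diphosphate isomerase, read 42.9 and 75.1 in O and 21.2 and 16.0 in B. The last 2 steps, HDS and HDR, overlapped: HDS read 205 and 793 in O and 632 and 643 in B. DXR, the second enzyme, was listed at 0 in both O libraries and at 0.842 and 4.07 FPKM in B, too low to set a direction. CMK, 1 of the 6 counted above B, was also too low for that, at 1 and 2 recovered reads in O and 0 in both B libraries.

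Most petal identity genes were expressed, which matched the tissue label: of 8, 7 were tested, and SEP4 was listed at 0 in the 4 libraries. Of the 7, 5 had both O libraries above B, 1 (SEP3) below and 1 overlapped. AP3 and PI, the MADS-box genes that specify petals and stamens, were abundant in all 4 libraries: AP3 read 3368 and 3380 FPKM in O and 3141 and 3336 in B, and PI 1630 and 2447 in O and 1446 and 1594 in B. None of 5 carpel and ovule markers reached the test threshold, with a highest value of 0.966 FPKM, and all 5 tapetum markers were listed at 0 in the 4 libraries. Of 4 pollen markers, 3 were tested and AGP6 was listed at 0 in the 4 libraries. The summed pollen level was 11.9 and 20.2 FPKM in O and 24.0 and 22.0 in B, led by VGD1, a pollen pectin methylesterase, at 7.93 and 8.24 in O and 14.7 and 16.4 in B. The part of this small difference in the results above was not tested.

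Of the 4 libraries, O library 1 alone had nearly silent heat shock genes. All 25 tested loci of the heat shock list summed to 196 FPKM in O library 1, against 13530 in O library 2 and 18857 and 19032 in B, and 13 of the 25 were listed at 0 in O library 1. HSP101, the chaperone that dissolves protein aggregates after heat, read 4.19 FPKM in O library 1 and 3107 in O library 2, with 5243 and 5320 in B. HSP90.1, the heat-inducible cytosolic chaperone, read 1.17 and 1188 in O and 2688 and 3015 in B. By rank 19 of the 25 loci had both O libraries below both B libraries and 6 overlapped, but the median difference from B was −6.32 for O library 1 and −0.77 for O library 2, on the log2(FPKM + 1) scale. The limma fit gave a lowest adjusted p of 0.477 in the list (HSFA7A), and 4 loci had an unadjusted p under 0.05, all lower in O.

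The same gap within O ran through other groups. Of 24 nuclear photosynthesis loci, all 24 were higher in O library 2 than in O library 1, and O library 2 lay above both B libraries at all 24 while O library 1 lay below both at 14. RCA, rubisco activase, read 532 and 5475 FPKM in O and 3791 and 4002 in B. RBCS1A, a small subunit of rubisco, was 1 of the 8 loci with both O libraries above B, at 135 and 306 in O and 36.1 and 43.0 in B (log2 difference 2.34, SE 0.429, limma adjusted p = 0.312), although reads of the near-identical small subunit genes may be split. Aquaporins, the channels that let water into expanding cells, were higher in O library 2 at 17 of 17 tested loci. They summed to 10987 FPKM in O library 1, 60013 in O library 2 and 33721 and 31364 in B, with TIP1;1 of the vacuolar membrane at 152 and 5264 in O and 2372 and 2223 in B. The chaperone of the endoplasmic reticulum BIP2 read 62.9 and 1987 in O and 934 and 973 in B.

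Form Y had libraries that split in the same way. HSP101 was listed at 0 in Y library 1 and at 1808 FPKM in Y library 2, BIP2 read 317 and 3387, and LHCB1.4, a light-harvesting protein, 211 and 2287. For photosynthesis genes and aquaporins, by their medians, and for BIP2 the sign of the difference between O and B depends on which O library is read. For heat shock genes its size does, with medians of −6.32 for O library 1 and −0.77 for O library 2. The part of these groups in the other results was not tested. Late anthocyanin genes, which were highest in O library 1, had the reverse order within O, with 6 of 7 higher in library 1.

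**Figure D4:**
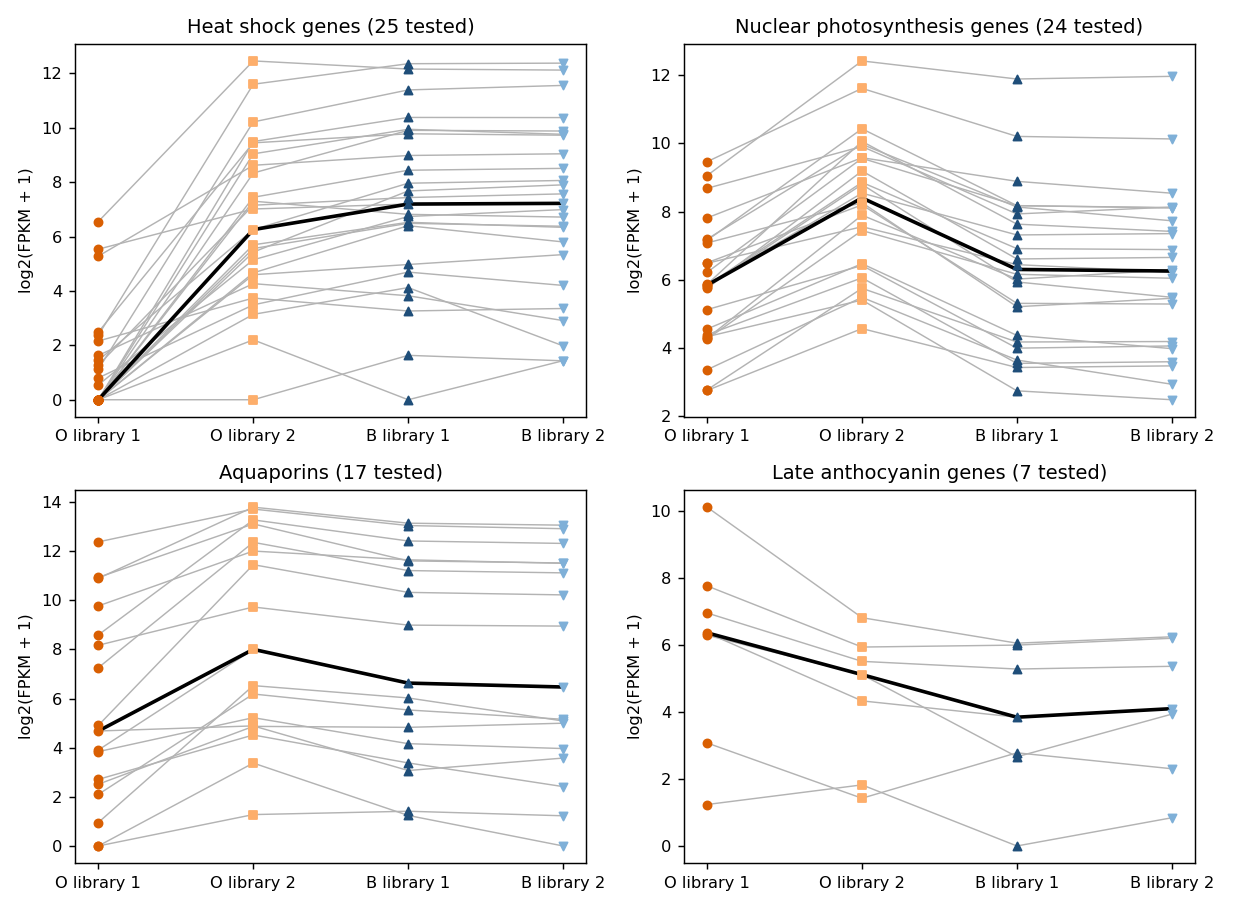
Level of each tested member of 4 gene lists in the 4 libraries as log2(FPKM + 1), with a grey line per locus and the median as a black line. Heat shock genes are lowest in O library 1 (summed 196 FPKM, against 13530 in O library 2 and 18857 and 19032 in B). Photosynthesis genes and aquaporins are lowest in O library 1 and highest in O library 2 by their medians, and late anthocyanin genes are highest in O library 1.

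Cell wall genes held wide gaps in both directions. EXPA6, an expansin that loosens walls, read 129 and 59.8 FPKM in O and 6.52 and 5.25 in B, 16.0-fold by the means (log2 difference 3.70, SE 0.599, limma adjusted p = 0.252). It was higher still in Y, at 261 and 92.5. Of 11 tested expansins, 5 had both O libraries above B, 1 below and 5 overlapped. EXPA11 differed within O, at 2.84 and 553 FPKM, with 13.8 and 14.4 in B. XTH6, a xyloglucan-modifying enzyme, had the opposite order, at 38.8 and 3.63 in O and 199 and 162 in B (log2 difference −3.73, SE 1.11, limma adjusted p = 0.462), and the 10 tested enzymes of its list were mixed, with 4 above, 2 below and 4 overlapping.

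Surface lipid genes were more often above B than below. Of 11 tested cuticle loci, 9 had both O libraries above both B libraries, 1 below and 1 overlapped, with a median log2 difference of 1.04, which was 0.48 without O library 1. KCS1, a fatty acid elongase for waxes, read 36.6 and 18.9 FPKM in O and 5.29 and 3.04 in B (log2 difference 2.44, SE 0.557, limma adjusted p = 0.378). CER3, which acts in wax alkane formation, was even within forms, at 147 and 117 in O and 52.4 and 61.0 in B (log2 difference 1.2, SE 0.293, limma adjusted p = 0.397). SHN1, a regulator of cuticle genes, had the opposite order, at 8.36 and 1.74 in O and 16.3 and 9.87 in B. All 5 tested lipid transfer proteins lay above B in both O libraries, with a median log2 difference of 1.09, which was 0.52 without O library 2. LTP4, for example, read 178 and 289 FPKM in O and 70.1 and 93.8 in B, although close copies such as LTP3 and LTP4 may share reads.

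Stress regulators tended to be lower in O by their library values. Of 8 tested early stress loci, 5 had both O libraries below B and 3 overlapped, and all 8 log2 differences were negative, with a median of −0.70. ZAT12, a zinc finger factor of oxidative and cold stress, read 1.44 and 1.80 FPKM in O and 14.8 and 17.1 in B, 9.81-fold higher in B by the means (log2 difference −2.69, SE 0.441, limma adjusted p = 0.252). The cold and dehydration list, which holds RCI2B, had 1 called member of 9 tested, and by library values 5 lay above, 1 below and 3 overlapped. Its other members were low or small in difference: RD29A read 13.9 and 7.70 in O and 1.67 and 0.449 in B, and COR47 read 103 and 122 in O and 180 and 183 in B.

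Clock genes, whose level follows the time of day, differed in part. CCA1, a morning-phased MYB factor, read 112 and 189 FPKM in O and 290 and 338 in B, and RVE1, its relative, 56.3 and 64.8 in O and 128 and 153 in B (limma adjusted p = 0.491 and 0.498). LHY, the partner of CCA1, overlapped, at 539 and 121 in O and 121 and 121 in B. GI, an evening gene, read 119 and 19.4 in O and 16.6 and 11.8 in B. Of the 10 tested loci of the list, 4 lay below B, 1 above and 5 overlapped. The labels used here give no time of day for harvest.

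Among hormone and growth lists, jasmonate was balanced, while ethylene, GASA and petal growth had more loci above B than below. Of 7 tested petal growth loci, 3 lay above B, 1 below and 3 overlapped. Of 18 tested jasmonate loci, 5 lay above B, 5 below and 8 overlapped. The 3 MYB factors that act downstream of jasmonate in opening petals and stamens were among those above: MYB21 read 2328 and 1864 FPKM in O and 1321 and 1260 in B, MYB57 read 672 and 521 in O and 309 and 308 in B, and MYB24 read 204 and 37.8 in O and 34.3 and 33.0 in B. Of 13 ethylene loci, 7 lay above, 1 below and 5 overlapped, with a median log2 difference of 0.18. CTR1, the kinase that holds ethylene signalling off, read 133 and 114 in O and 76.2 and 71.3 in B. Besides GASA6, the GASA list had GASA14 at 18.4 and 10.3 FPKM in O and 5.35 and 1.08 in B, and GASA1, which overlapped at 786 and 115 in O and 239 and 230 in B. TCP4, a growth-limiting factor of petals and leaves, read 90.09 and 74.87 in O and 39.9 and 40.6 in B (log2 difference 1.01, SE 0.284, limma adjusted p = 0.457).

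Sugar and light genes were mixed. Of 15 tested sugar loci, 4 lay above B, 3 below and 8 overlapped, and of 12 light signalling loci 4 lay above, 4 below and 4 overlapped. STP1, a monosaccharide transporter, read 55.2 and 54.5 FPKM in O and 19.6 and 15.8 in B, 3.10-fold by the means (log2 difference 1.59, SE 0.456, limma adjusted p = 0.459). SWEET1, a glucose transporter, had the opposite order, at 33.1 and 20.7 in O and 75.7 and 76.7 in B. SWEET9, a nectary sucrose transporter, read 343 and 0 in O and 170 and 201 in B, and 201 and 0 in Y. AVP1, the vacuolar proton pump, read 279 and 308 in O and 181 and 170 in B. ABCC2, a vacuolar transporter that carries anthocyanins in Arabidopsis, read 529 in O library 1, 78.8 in O library 2 and 90.4 and 89.0 in B. PHYA, a red and far-red light receptor, read 107 and 100.4 in O and 161 and 166 in B. UVR8, the ultraviolet-B receptor, read 100.04 and 117 in O and 63.0 and 59.3 in B, and RUP2, its repressor, 17.81 and 29.61 in O and 5.38 and 10.4 in B.

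**Figure D5:**
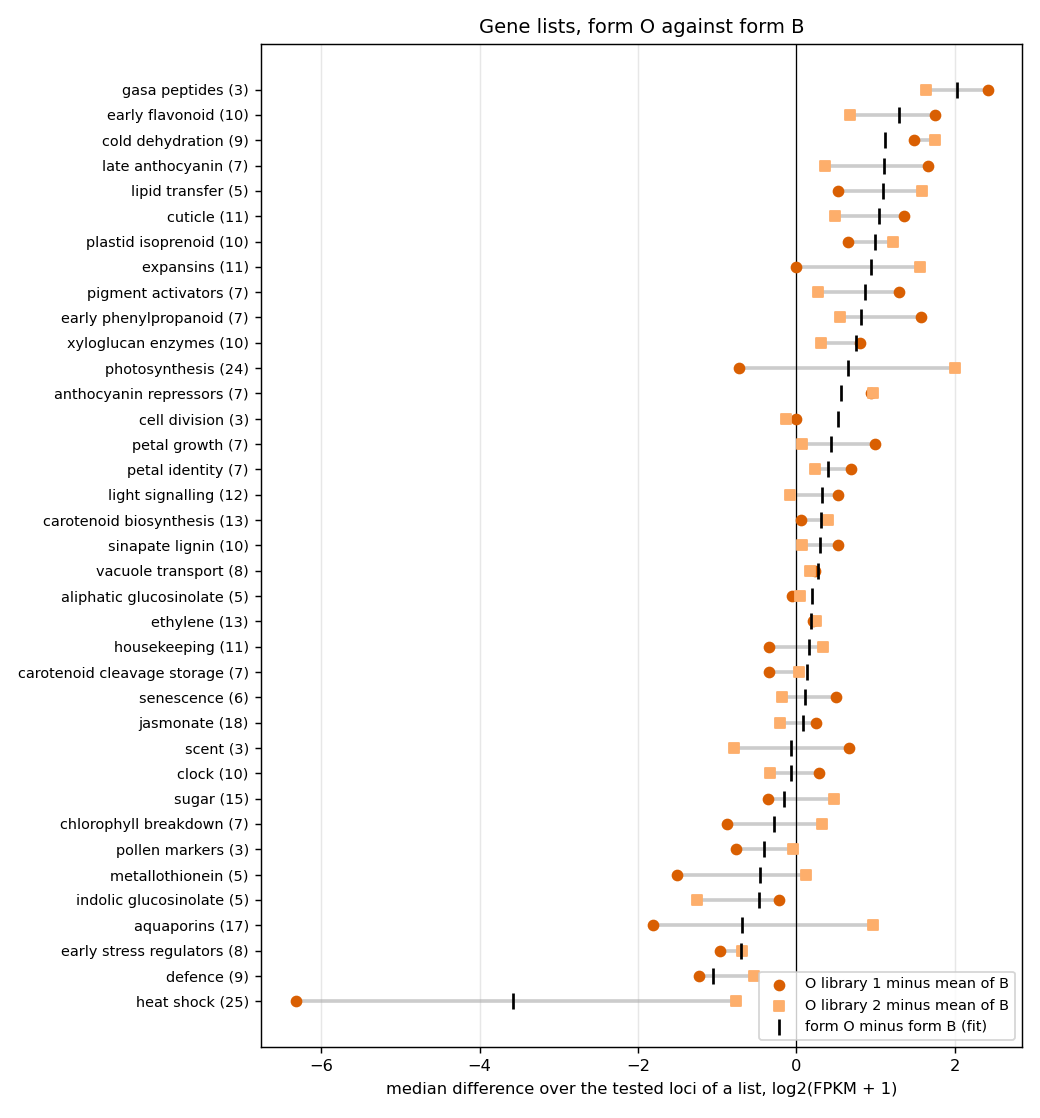
Median difference of each gene list with at least 3 tested loci (number in brackets), with O library 1 as circles and O library 2 as squares, each against the mean of B, and the fitted O minus B difference as a black bar, on the log2(FPKM + 1) scale. The early flavonoid list has both O libraries above 0 around a median of 1.3, while the circles and squares of heat shock (−6.32 and −0.77), aquaporins (−1.81 and 0.97) and photosynthesis (−0.72 and 1.998) lie far apart.

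Genes often used as references also differed between forms. Of 11 tested, 4 lay above B in both O libraries, 2 below and 5 overlapped, and their log2 differences ran from −0.97 (PP2AA3) to 0.85 (UBC21), which was itself listed at 0 in B library 1 and at 27.1 FPKM in B library 2. ACT2, an actin, read 1084 and 2897 FPKM in O and 1069 and 1066 in B.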

How the data were processed

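The values are FPKM as deposited by the authors, 1 per library and Arabidopsis locus. The submitters' processing notes name TopHat, Cufflinks, Cuffdiff and DESeq without versions, and the series states that Arabidopsis served as reference. The genome build is not given in the sources used here. In the table, 2 further columns of per-sample values, whose heading matches no sample title, were not used. Loci averaging 1 FPKM or more in O or B entered a limma fit (version 3.58.1, in R 4.3.3) of log2(FPKM + 1) on the 6 libraries of B, O and Y, with an intensity trend in the empirical Bayes step (3 residual and 3.06 prior degrees of freedom) and Benjamini-Hochberg adjustment. The script was tested on simulated data. A count model was not used, because whole reads could be recovered for 5873 of 13252 loci only, which hold 3.35% to 3.95% of the FPKM. The step of a locus was found from values under 20 reads, each within 0.1 of a whole number. Larger values were then rounded to whole reads on that step. Full depth is unknown, and recovered reads served to compare replicates and to judge low values.

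Groups are the form codes in the titles. Replicate numbers did not pair O with B (correlation of deviations between library 1 of O and of B, −0.03), while those of O and Y moved together (0.41). Loci are named from 41 lists of 483 Arabidopsis genes, of which 1 is not in the table. The members and lists were chosen with earlier results of these data known. Named by rule were 16 pigment genes, the called list members and the called loci without overlap. All other genes were chosen after their values were seen. Alternative settings comprised a pseudocount of 0.1, dropping the filter, a form mean of at least 5 FPKM, quantile scaling, only B and O, a replicate block, no trend, and each library left out. Averaging the B libraries to 1 was added after seeing the data.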

Additional observations from a re-analysis of the deposited data

How the results depend on the processing

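All 4 calls held with a pseudocount of 0.1, a form mean of at least 5 FPKM and quantile scaling. In place of 3 loci higher in O, there was 1 (AT2G40205) without a filter, with only B and O fitted and without the variance trend, which gave 2 lower (AT3G28530 and AT1G60470). With the replicate number as a block, 2 were higher and 1 lower, and AT1G74710 took the place of GASA6 and RCI2B. Leaving out a library in turn gave 0 loci higher each time and 0 to 1 lower in limma, with 862 to 2251 loci at an unadjusted p under 0.05. With the B libraries averaged to 1, limma called 0 higher and 0 lower, with 684 loci at an unadjusted p under 0.05. Where 1 library of a form remained, its spread was taken from the other forms. The cause of these losses was not tested. The median log2 difference over tested loci, 0.01311, was 0.00361 with a pseudocount of 0.1, 0 without a filter, −0.01057 at a mean of 5 FPKM, −0.01224 with quantile scaling, −0.02919 with B averaged, and −0.03398 to 0.04532 with a library left out.

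Among the 20 named genes, the sign turned in 5 cases: LDOX (−0.1602) and BCH2 (0.01918) without O library 1, BCH2 (0.05004) and CCD4 (−0.03877) without B library 2, and CCD4 (−0.3804) without O library 2. With a library left out, LDOX ran from −0.1602 to 1.665, BCH2 from −0.1393 to 0.05004 and CCD4 from −0.3804 to 0.8422. Low values limit PAP2, CCD4 and RCI2B, which rest on few reads. TT8 was above 0 in O library 1 only and was not tested without it. The spread of O limits the heat shock, photosynthesis and aquaporin groups.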
